A study of Mus musculus with 4 samples.

Results

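The linker histone H1 genes examined here are Hist1h1e, Hist1h1d, Hist1h1c, Hist1h1b and H1f0, 5 of the 32285 gene rows in the count matrices, found by their symbols. They were chosen by the RvD1 over vehicle ratio of Hist1h1e in T cells and natural killer (NK) cells, seen in earlier work on these data, so the RvD1 over vehicle ratios given below are descriptions and no test is attached to them. The samples were leukocytes carrying the pan-leukocyte marker CD45 from B6 mouse left lung grafts placed in recipients of the same strain. Cold storage of the graft lasted 60 min at 4 °C, followed by 45 min at 28 °C, and cells were taken 2 h into reperfusion. The 4 groups were RvD1 donor, vehicle donor, RvD1 recipient and vehicle recipient leukocytes, with 1 library of 2 pooled lungs each. Resolvin D1 (RvD1) derives from the fatty acid docosahexaenoic acid and is known for its part in the resolution of inflammation. Each treated mouse received 200 ng of it intravenously, dissolved in 200 µL of 1% ethanol, and controls received vehicle. The labels' protocols give the recipient as the treated animal, whereas the design text speaks of treated grafts. Every group is a single library, so no value has a replicate check. A ratio between groups therefore compares libraries, and every interval covers counting error only.

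Linker histones bind the nucleosome where DNA enters and leaves it and help to fold chromatin into a more compact fibre. Most somatic H1 genes lie in the replication-dependent histone cluster, and their main transcripts end in a conserved stem-loop in place of a poly(A) tail. The stem-loop is bound by the protein encoded by Slbp and couples histone supply to DNA replication. H1f0 is known as the replacement subtype, which is made outside S phase and accumulates in resting and differentiated cells. The 10x Genomics 3' v3 chemistry captures RNA through poly(A), so H1 transcripts that end at the stem-loop are poorly captured, and the UMIs (unique molecular identifiers, 1 per captured molecule) describe the captured RNA.

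All 5 genes have a single exon in GENCODE M21 (GRCm38). Hist1h1c, Hist1h1d and Hist1h1e lie on chromosome 13 between 23553262 and 23740367, Hist1h1b lies on chromosome 13 at 21779883 to 21780625, and H1f0 lies on chromosome 15 at 79028450 to 79030504. The stem-loop bears on how each mRNA can be captured, and a search after the stop codon, for a stem of 6 base pairs that starts with GG around a loop of 4 bases that starts with TTT, found it in 3 members. These are shown from GENCODE M21 in sense, with the 16 bases of stem and loop in capitals.
Hist1h1e: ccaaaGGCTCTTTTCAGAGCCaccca
Hist1h1d: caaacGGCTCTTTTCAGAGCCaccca
Hist1h1c: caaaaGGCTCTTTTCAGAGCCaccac
The stem-loop began 40 bases after the stop codon in Hist1h1e, 31 in Hist1h1d and 24 in Hist1h1c. The annotated models ran on for another 1153, 4884 and 840 bases beyond it, in the same order of genes. The same 16 bases, sought anywhere in the transcript models, were found in 23 of 64 core histone genes. That search would miss a stem-loop of other bases or one beyond the end of a model. The Hist1h1b model ends at its stop codon, so no bases after it could be searched. The H1f0 model has 1198 bases after the stop codon and no match. An AATAAA polyadenylation hexamer lies in the last 50 bases of the H1f0 and Hist1h1c models. It was not found there in the models of Hist1h1e, Hist1h1d and Hist1h1b. Where counted molecules ended relative to the stem-loop cannot be read from UMI counts per gene.

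The promoters are printed to set the cluster genes beside H1f0, which lies elsewhere. The sequences are the 130 bases just upstream of the RefSeq start (RefSeq, GRCm38.p6), written in the direction of transcription: Hist1h1e at chr13:23622559-23622688 on the minus strand, Hist1h1c at chr13:23738677-23738806 on the plus strand, Hist1h1b at chr13:21780626-21780755 on the minus strand and H1f0 at chr15:79028082-79028211 on the plus strand. Capitals mark matches on either strand to the H1 box AAACACA, to the CCAAT box and to the TATA-like string TATATAA. In Hist1h1b the first CCAAT match is on the other strand, and TATATAA overlaps its own match on the other strand.
Hist1h1e: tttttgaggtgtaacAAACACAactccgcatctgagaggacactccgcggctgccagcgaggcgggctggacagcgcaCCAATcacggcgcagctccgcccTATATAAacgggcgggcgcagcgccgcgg
Hist1h1c: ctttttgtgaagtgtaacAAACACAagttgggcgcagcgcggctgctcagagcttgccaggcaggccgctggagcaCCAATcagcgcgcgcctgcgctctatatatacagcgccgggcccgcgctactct
Hist1h1b: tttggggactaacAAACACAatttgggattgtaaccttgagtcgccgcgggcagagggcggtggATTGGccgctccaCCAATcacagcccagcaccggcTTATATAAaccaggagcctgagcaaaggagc
H1f0: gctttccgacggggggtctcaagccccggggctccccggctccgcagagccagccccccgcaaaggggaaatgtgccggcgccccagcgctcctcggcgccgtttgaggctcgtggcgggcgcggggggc
Over the 250 bases upstream and both strands, AAACACA was found in Hist1h1e, Hist1h1d, Hist1h1c and Hist1h1b, in 6.25% of 32851 RefSeq promoters and in 4 of 54 core histone promoters. It began 115 bases upstream of the start in Hist1h1e, 122 in Hist1h1d, 112 in Hist1h1c and 117 in Hist1h1b. CCAAT was found in the same 4 members, in 33.8% of all promoters and in 43 of 54 core histone promoters. TATATAA was found in Hist1h1e, Hist1h1d and Hist1h1b, in 3.04% of all promoters and in 4 of 54 core histone promoters. None of these strings was found in that window of H1f0, whose printed stretch is 76.9% G and C. The window ends at 79028211, ahead of the GENCODE start of H1f0 at 79028450, and the bases between them were not searched.

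Clusters of cells were named from marker genes as NK-cell-like, B-cell-like, T-cell-like, gamma-delta-T-cell-like, classical-monocyte-like, nonclassical-monocyte-like, migratory-dendritic-cell-like and neutrophil-like. The ending is left out below. Basophil-like, alveolar-macrophage-like and group 2 innate-lymphoid-cell-like clusters held under 100 cells in at least 1 library of each pair and were not compared. RvD1 and vehicle were compared in 14 combinations of type and origin, 6 types in both origins and gamma-delta T and dendritic cells in donor cells only. Libraries held 5024 to 7345 cells with median depths of 5386 to 7905 UMIs, and between 4 and 15 cell barcodes were shared by any pair of libraries. Per the matrix headers, version 7.0.1 of Cell Ranger made the RvD1 matrices and version 6.1.1 the vehicle matrices, so software version and treatment cannot be told apart. No source used here says whether reads in introns entered the counts. The part of the version in the ratios was not tested. Levels are given in CPM, UMIs per 1000000 UMIs of that type and library, and orders of types cover those with at least 100 cells in the library.

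Hist1h1e (H1f4 in RefSeq), one of the abundant somatic subtypes, was highest in NK, B and T cells in all 4 libraries among the types with at least 100 cells. In NK cells its level was 641 CPM in RvD1 donor cells and 209 CPM in vehicle donor cells. Recipient NK cells had 755 CPM with RvD1 and 318 CPM with vehicle. B cells followed with 379 CPM in RvD1 donor cells and 184 CPM in vehicle donor cells, and with 595 CPM in RvD1 recipient cells and 326 CPM in vehicle recipient cells. The order of NK and B cells was clear of counting error in both RvD1 libraries, whereas their intervals overlapped in both vehicle libraries. T cells had 344 CPM in RvD1 donor, 159 CPM in vehicle donor, 259 CPM in RvD1 recipient and 122 CPM in vehicle recipient cells. Classical monocytes had at most 163 CPM, in RvD1 recipient cells, and at least 58.4 CPM, in vehicle donor cells. Nonclassical monocytes ran to 143 CPM in RvD1 recipient cells and down to 42.6 CPM in vehicle donor cells. Neutrophils were lowest among the types compared, at 28.3, 21.8, 22 and 7.84 CPM in RvD1 donor, vehicle donor, RvD1 recipient and vehicle recipient cells.

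Hist1h1d (H1f3), another replication-dependent subtype, had the same broad order at lower counts. Its level was 83.0 CPM in RvD1 donor and 29.2 CPM in vehicle donor NK cells, and 126 CPM in RvD1 recipient and 36.7 CPM in vehicle recipient NK cells. Neutrophils held 0.981 to 3.01 CPM of it over the 4 libraries. Hist1h1c (H1f2) was spread far more evenly over the types. Among vehicle recipient cells neutrophils led, with 118 CPM, and their interval overlapped that of B cells at 109 CPM. Among vehicle donor cells dendritic, T, B and NK cells and neutrophils lay between 65.9 and 81.4 CPM, each overlapping its neighbour in rank.

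Among types with at least 100 cells, H1f0 was highest in classical monocytes in both RvD1 libraries. The dendritic cell cluster held 36 RvD1 recipient cells, in which 3 of 6 dendritic markers were in at least 10% of cells. Those markers were at 231 CPM there, against 147 CPM elsewhere, so the name is weak for these cells. H1f0 in these 36 cells was at 41.7 CPM from 22 UMIs, with an interval (26.2 to 63.2) that held the classical monocyte value. Classical monocytes had 45.9 CPM in RvD1 donor and 19.1 CPM in vehicle donor cells, and 39.9 CPM in RvD1 recipient and 20.1 CPM in vehicle recipient cells. In RvD1 recipient cells their interval overlapped that of nonclassical monocytes at 30.5 CPM. In vehicle recipient cells nonclassical monocytes ranked first at 22.2 CPM, again with overlapping intervals. Neutrophils, by contrast, had 0.363 to 1.56 CPM, from 7 to 13 UMIs in a library. Among the vehicle donor types with at least 100 cells, gamma-delta T cells ranked first with 29.7 CPM from 53 UMIs, and their interval overlapped that of classical monocytes. Hist1h1b (H1f5), a replication-dependent subtype known for its expression in dividing cells, was highest in T cells of every library, at 196 CPM in RvD1 donor, 161 CPM in vehicle donor, 49.1 CPM in RvD1 recipient and 87.5 CPM in vehicle recipient cells. The interval of RvD1 recipient T cells overlapped that of B cells at 44.3 CPM.

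**Figure D1:**
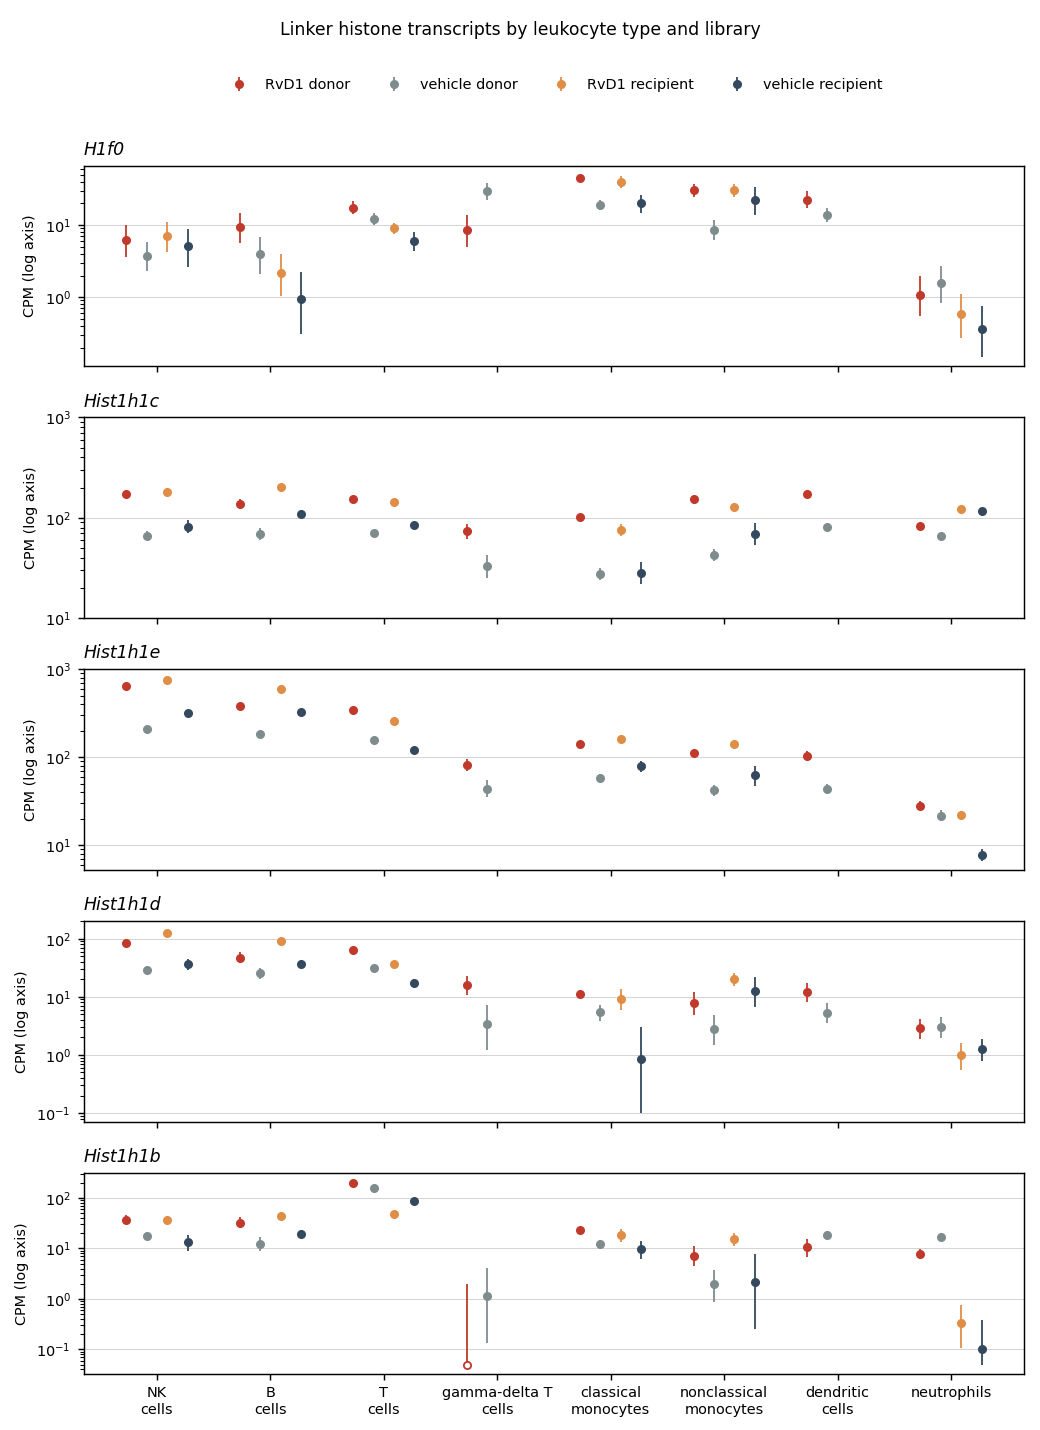
Level of each linker histone gene (CPM, log axis) by leukocyte type and library, with exact 95% Poisson intervals as bars and an open circle at the foot of the axis where no UMI was counted. Hist1h1e and Hist1h1d stand highest in NK, B and T cells, H1f0 is lowest in neutrophils in all 4 libraries, and Hist1h1c spans the narrowest range over the types compared in each library.

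The make-up of the H1 UMIs differed between types. Shares are shares of the UMIs of the 5 genes, with no correction for length because each UMI is 1 molecule, and capture may differ between the genes. Hist1h1e made up 62.4% to 69.9% of the H1 UMIs of NK and B cells over the 4 libraries. In neutrophils Hist1h1c made up 67.5% in RvD1 donor, 60.2% in vehicle donor, 83.6% in RvD1 recipient and 92.5% in vehicle recipient cells. H1f0 contributed 13% to 15.5% in classical monocytes and 8.73% to 13.1% in nonclassical monocytes, against at most 1.57% in NK cells, B cells and neutrophils. Among the types compared, T cells had the largest share of Hist1h1b, 25.3% in RvD1 donor, 37.0% in vehicle donor, 9.86% in RvD1 recipient and 27.6% in vehicle recipient cells.

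**Figure D2:**
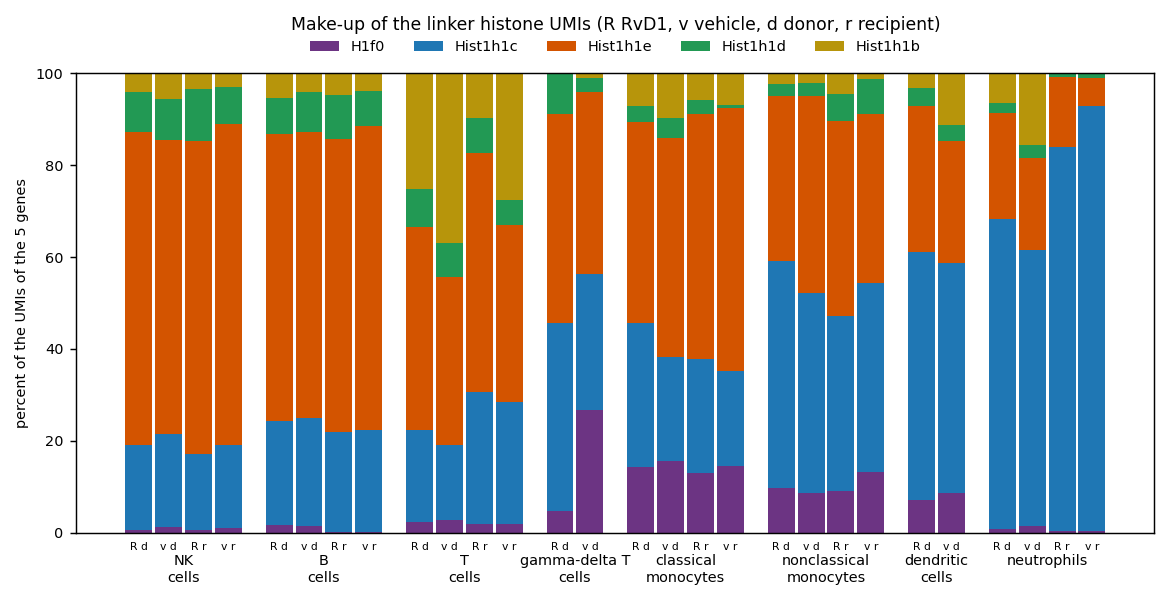
Share of each gene in the UMIs of the 5 linker histone genes (percent) for each type and library, in stacked bars that sum to 100. Hist1h1e fills most of the bars of NK and B cells, Hist1h1c most of those of neutrophils, and H1f0 is visible mainly in monocytes, dendritic cells and gamma-delta T cells.

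Between RvD1 and vehicle, all 4 H1 genes with enough counts were at least 2-fold higher in NK cells of both origins. These were Hist1h1e, Hist1h1d, Hist1h1c and Hist1h1b, and H1f0 had under 100 UMIs over the pair of libraries in each origin, the minimum for a ratio. At least 2-fold higher in both origins held for 0.211% of the 6149 genes with enough counts in NK cells. The summed H1 level was 941 CPM in RvD1 donor and 326 CPM in vehicle donor NK cells, and 1108 CPM in RvD1 recipient and 455 CPM in vehicle recipient NK cells. The log2 ratio of Hist1h1e was 1.62 in donor cells (95% counting interval 1.51 to 1.73) and 1.25 in recipient cells (1.12 to 1.37). Hist1h1d had log2 ratios of 1.51 in donor and 1.78 in recipient NK cells, and Hist1h1c had 1.38 and 1.16. Hist1h1b was at 37.4 CPM in RvD1 donor and 17.8 CPM in vehicle donor NK cells, and at 37.0 CPM in RvD1 recipient and 13.2 CPM in vehicle recipient NK cells, with log2 ratios of 1.07 and 1.49. Without scaling to the total, as UMIs per cell, 1 member was past 2-fold in both origins, Hist1h1d, and the log2 ratio of Hist1h1e was 1.40 in donor and 0.81 in recipient cells.

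The difference in Hist1h1e was spread over NK cells rather than held by a few. For Hist1h1b, the top 5% of NK cells held 82.3% of its UMIs in RvD1 donor and 89.9% in vehicle donor cells. In recipient NK cells that share was 83.2% with RvD1 and 87.1% with vehicle. Hist1h1e was detected in 90.3% of RvD1 donor and 60.8% of vehicle donor NK cells, and in 88.9% of RvD1 recipient and 67.3% of vehicle recipient NK cells. The median depth was 5649 and 6628 UMIs in the donor pair and 4596 and 5998 UMIs in the recipient pair, so RvD1 cells were the shallower ones. With every cell thinned to 500 UMIs, the shares were 29.5% in RvD1 donor and 8.96% in vehicle donor cells, and 33.4% in RvD1 recipient and 15.2% in vehicle recipient cells. For comparison, neutrophils with a UMI of Hist1h1e made up 6.97%, 3.49%, 7.42% and 3.04% of RvD1 donor, vehicle donor, RvD1 recipient and vehicle recipient neutrophils, at median depths of 4857 to 5334.5 UMIs. The 8 neutrophil marker genes summed to 1511 CPM in RvD1 donor and 98.3 CPM in vehicle donor NK cells, and to 576 CPM in RvD1 recipient and 1176 CPM in vehicle recipient NK cells, with Ly6g at 0 in vehicle donor and RvD1 recipient cells. They were thus higher with RvD1 in donor NK cells and lower with RvD1 in recipient NK cells, and their part in the H1 ratios was not tested.

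In B cells the same 4 genes had levels above vehicle with RvD1, and the ratios of Hist1h1e, Hist1h1d and Hist1h1c were smaller than in NK cells. The median log2 ratio of all genes there was -0.26 in donor and -0.10 in recipient cells. Hist1h1e had log2 ratios of 1.04 in donor and 0.87 in recipient cells, Hist1h1c of 0.99 and 0.89, and Hist1h1d of 0.90 and 1.29. Hist1h1b was at 32.4 CPM in RvD1 donor and 12.2 CPM in vehicle donor B cells and at 44.3 CPM in RvD1 recipient and 19.5 CPM in vehicle recipient B cells, with log2 ratios of 1.41 and 1.18. It was the single member of 4 with enough counts that was at least 2-fold higher in both origins, against 0.179% of all 6134 genes. Neutrophil markers summed to 1886 CPM in RvD1 donor, 70.7 CPM in vehicle donor, 273 CPM in RvD1 recipient and 838 CPM in vehicle recipient B cells. The 5 erythroid marker genes summed to 3 CPM, 2.75 CPM, 94.9 CPM and 2.3 CPM in the same order. The part of either marker set in the B cell ratios was not tested. As UMIs per cell, no member was past 2-fold in both origins of B cells.

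T cells had at least 2-fold higher Hist1h1e and Hist1h1d in both origins, 2 of 5 members, against 0.119% of 8433 genes. The log2 ratios of Hist1h1e were 1.11 in donor cells (1.01 to 1.21) and 1.09 in recipient cells (0.99 to 1.2). Hist1h1d stood at 63.2 CPM in RvD1 donor, 31.5 CPM in vehicle donor, 37.0 CPM in RvD1 recipient and 17.4 CPM in vehicle recipient T cells, with log2 ratios of 1.00 and 1.09. Hist1h1c was 1.14 higher on the log2 scale in donor T cells and 0.76 higher in recipient T cells. H1f0 was at 17.5 CPM in RvD1 donor, 12.3 CPM in vehicle donor, 9.05 CPM in RvD1 recipient and 5.98 CPM in vehicle recipient T cells, with log2 ratios of 0.51 (0.09 to 0.93) and 0.60 (0.10 to 1.12). As UMIs per cell, neither Hist1h1e (0.90 in donor, 0.82 in recipient) nor any other member was past 2-fold in both origins. Neutrophil markers summed to 397 CPM in RvD1 donor, 97.2 CPM in vehicle donor, 378 CPM in RvD1 recipient and 863 CPM in vehicle recipient T cells. The 5 erythroid marker genes summed to 1.84 CPM in RvD1 donor, 1.06 CPM in vehicle donor, 227 CPM in RvD1 recipient and 0.266 CPM in vehicle recipient T cells. The part of either marker set in the T cell ratios was not tested.

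Outside dividing T cells, Hist1h1e lay further apart between RvD1 and vehicle. Cells with 2 or more UMIs of the proliferation genes Mki67 and Top2a together made up 5.10% of RvD1 donor T cells (32 cells), 7.33% of vehicle donor (62 cells), 2.88% of RvD1 recipient (51 cells) and 1.89% of vehicle recipient T cells (15 cells). They held 42.1%, 60.7%, 18.2% and 37.9% of the T cell UMIs of Hist1h1e in those libraries. Outside them Hist1h1e was at 218 CPM (205 to 231) in RvD1 donor and 72.0 CPM (66.0 to 78.4) in vehicle donor T cells, and at 222 CPM (215 to 231) in RvD1 recipient and 78.6 CPM (72.3 to 85.4) in vehicle recipient T cells. The intervals of RvD1 and vehicle did not overlap in either origin. Hist1h1d outside the cycling cells was at 31.9 CPM in RvD1 donor and 7.07 CPM in vehicle donor cells, and at 24 CPM in RvD1 recipient and 7.20 CPM in vehicle recipient cells. Hist1h1c outside them was at 133 CPM in RvD1 donor and 51.7 CPM in vehicle donor cells, and at 137 CPM in RvD1 recipient and 79.7 CPM in vehicle recipient cells.

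Within cycling T cells the picture differed between origins. Hist1h1e was at 1660 CPM in RvD1 donor and 735 CPM in vehicle donor cells, but at 1024 CPM in RvD1 recipient and 1128 CPM in vehicle recipient cells, whose intervals overlapped. Hist1h1b was at 2092 CPM in RvD1 donor and 1170 CPM in vehicle donor cells, and at 904 CPM in RvD1 recipient and 2061 CPM in vehicle recipient cells. Cycling cells held 93.0%, 96.0%, 84.8% and 96.2% of the Hist1h1b UMIs of T cells in RvD1 donor, vehicle donor, RvD1 recipient and vehicle recipient libraries. The whole T cell log2 ratio of Hist1h1b was 0.29 in donor cells (0.17 to 0.40) and -0.84 in recipient cells (-0.99 to -0.68), from those few cells. Without T cell cluster 11 it was 2.51 (1.26 to 3.96) in donor cells, from 25 UMIs with RvD1 and 7 with vehicle, and 1.58 (0.40 to 2.99) in recipient cells, from 38 and 7 UMIs. Both values were then above 0, from counts under the minimum for a ratio. In the other T cells Hist1h1b was at 14.9 CPM in RvD1 donor and 7.34 CPM in vehicle donor cells, and at 7.83 CPM in RvD1 recipient and 3.46 CPM in vehicle recipient cells.

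**Figure D3:**
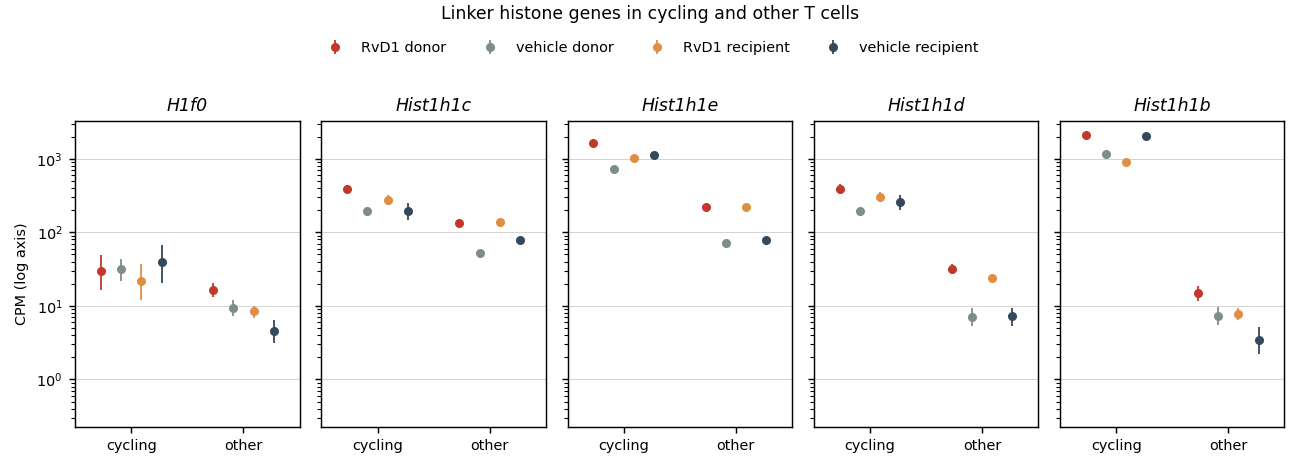
Level of each linker histone gene (CPM, log axis) in T cells with 2 or more UMIs of Mki67 and Top2a (cycling) and in the other T cells, by library, with exact 95% Poisson intervals. Outside cycling cells each gene is higher in the RvD1 library than in the vehicle library of the same origin, whereas among cycling cells Hist1h1b is higher with RvD1 in donor cells and lower in recipient cells.

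By cluster, Hist1h1e was higher with RvD1 in T cell cluster 7, whose leading genes include Cd8b1 and Lef1. It stood there at 162 CPM in RvD1 donor and 42.6 CPM in vehicle donor cells, and at 196 CPM in RvD1 recipient and 64.8 CPM in vehicle recipient cells. Cluster 9, led among others by Lef1 and Cd4, could be compared in recipient cells, with 214 CPM in RvD1 and 71.5 CPM in vehicle cells. Cluster 18, with Cxcr6 and Zbtb16 among its leading genes, could be compared in donor cells, with 341 CPM in RvD1 and 115 CPM in vehicle cells. The log2 ratios in these clusters ran from 1.57 to 1.93. In cluster 11, which has the S phase gene Pclaf among its leading genes, the donor log2 ratio was 0.78, and without that cluster the T cell log2 ratios of Hist1h1e were 1.76 in donor and 1.57 in recipient cells. Gamma-delta T cells of the donor had Hist1h1e at 82.0 CPM with RvD1 and 44.2 CPM with vehicle and Hist1h1c at 73.5 CPM with RvD1 and 33.0 CPM with vehicle. Of the 2 members with enough counts there, Hist1h1c was past 2-fold, against 0.932% of all genes. H1f0 was at 8.58 CPM from 16 UMIs with RvD1 and at 29.7 CPM from 53 UMIs with vehicle. Its log2 ratio was -1.79 (-2.70 to -0.96), from counts under the minimum for a ratio.

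In monocytes Hist1h1c had larger ratios than Hist1h1e in donor cells. Classical monocytes had Hist1h1c at 101 CPM in RvD1 donor and 27.9 CPM in vehicle donor cells, a log2 ratio of 1.86 (1.65 to 2.07), and at 76.5 CPM in RvD1 recipient and 28.4 CPM in vehicle recipient cells, a log2 ratio of 1.43 (1.03 to 1.85). Hist1h1e in the same cells had log2 ratios of 1.26 in donor and 1.05 in recipient cells. Both genes were thus at least 2-fold higher in both origins, 2 of 3 members with enough counts, against 0.187% of 5337 genes. H1f0, the third, had a log2 ratio of 1.27 (1.00 to 1.54) in classical monocytes of the donor and of 0.99 (0.49 to 1.51) in those of the recipient, and so was past 2-fold in donor cells. Hist1h1d and Hist1h1b had enough counts in donor classical monocytes alone, with log2 ratios of 1.03 (0.52 to 1.57) and 0.93 (0.58 to 1.28). Cycling cells held 9.06% of the Hist1h1b UMIs of RvD1 donor and 49.5% of those of vehicle donor classical monocytes. Neutrophil markers summed to 974 CPM in RvD1 donor, 277 CPM in vehicle donor, 610 CPM in RvD1 recipient and 1536 CPM in vehicle recipient classical monocytes, and their part in the ratios was not tested.

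Nonclassical monocytes had Hist1h1e past 2-fold in both origins, at 1.40 in donor and 1.2 in recipient cells on the log2 scale, 1 of 3 members, against 0.139% of 5037 genes. Hist1h1c was at 154 CPM in RvD1 donor and 43.0 CPM in vehicle donor cells, a log2 ratio of 1.84 (1.59 to 2.09), and at 129 CPM in RvD1 recipient and 69.9 CPM in vehicle recipient cells, a log2 ratio of 0.88 (0.50 to 1.28). H1f0 was at 30.6 CPM in RvD1 donor and 8.64 CPM in vehicle donor cells, a log2 ratio of 1.82 (1.27 to 2.40). In recipient nonclassical monocytes it was at 30.5 CPM with RvD1 and 22.2 CPM with vehicle, and the interval of that ratio spanned 0 (-0.24 to 1.21). For H1f0 the RvD1 levels were close in both origins, and the vehicle levels were not. The vehicle levels came from 21 UMIs in recipient and 40 in donor cells, under the minimum for a ratio. For Hist1h1c the recipient over donor log2 ratio was -0.26 (-0.46 to -0.06) with RvD1 and 0.70 (0.28 to 1.11) with vehicle. Dendritic cells of the donor had Hist1h1c at 174 CPM with RvD1 and 81.4 CPM with vehicle and Hist1h1e at 103 CPM with RvD1 and 43.3 CPM with vehicle. These 2 of 4 members were past 2-fold, against 0.807% of all genes, whereas Hist1h1b was at 10.6 CPM with RvD1 and 18.5 CPM with vehicle, and 1 vehicle cell gave 35 of its 100 UMIs.

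In neutrophils the Hist1h1c ratios were nearer to 0. The groups filled different neutrophil clusters: cluster 3 held 191 of 1950 RvD1 donor and 662 of 1434 vehicle donor cells, and 75 of 3073 RvD1 recipient and 1139 of 3356 vehicle recipient cells. Hist1h1c over all neutrophils was at 83.6 CPM in RvD1 donor and 65.9 CPM in vehicle donor cells, a log2 ratio of 0.34 (0.19 to 0.50), and at 122 CPM in RvD1 recipient and 118 CPM in vehicle recipient cells, a log2 ratio of 0.05 (-0.04 to 0.14). In donor neutrophils of cluster 3 its log2 ratio was 0.44 (0.01 to 0.86). Hist1h1c in donor neutrophils of cluster 4 was at 50.1 CPM with RvD1 and 44.2 CPM with vehicle. It was at 104 and 97.4 CPM in cluster 6, and at 110 and 87.6 CPM in cluster 8. By cluster of recipient neutrophils, its log2 ratio ran from 0.14 in cluster 4 down to -0.45 in cluster 8, apart from cluster 12, where it was 0.82. Hist1h1e, by contrast, had a log2 ratio of 0.38 in donor and 1.49 in recipient neutrophils. Neither gene was past 2-fold in both origins, 0 of 2 members, against 0.407% of 6640 genes.

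The donor value of Hist1h1e rested on a small cluster. Cluster 22, led by the granule precursor genes Camp, Ngp and Ltf, held 66 cells in RvD1 donor, 35 in vehicle donor, 39 in RvD1 recipient and 17 in vehicle recipient libraries. Hist1h1e was at 330 CPM in RvD1 donor, 286 CPM in vehicle donor, 626 CPM in RvD1 recipient and 922 CPM in vehicle recipient cells of that cluster. Without it Hist1h1e was at 15.2 CPM in RvD1 donor and 4.99 CPM in vehicle donor neutrophils, and at 17.5 CPM in RvD1 recipient and 5.62 CPM in vehicle recipient neutrophils. The donor log2 ratio was then 1.61 (1.09 to 2.16) and the recipient one 1.64 (1.31 to 1.98), and Hist1h1e was past 2-fold in both. Cluster 22 also held 74 of 80 Hist1h1b UMIs of RvD1 donor neutrophils and 141 of 143 of vehicle donor neutrophils. The donor log2 ratio of Hist1h1b, -1.13 over all neutrophils, rested on that cluster, and 6 UMIs with RvD1 and 2 with vehicle remained outside it.

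**Figure D4:**
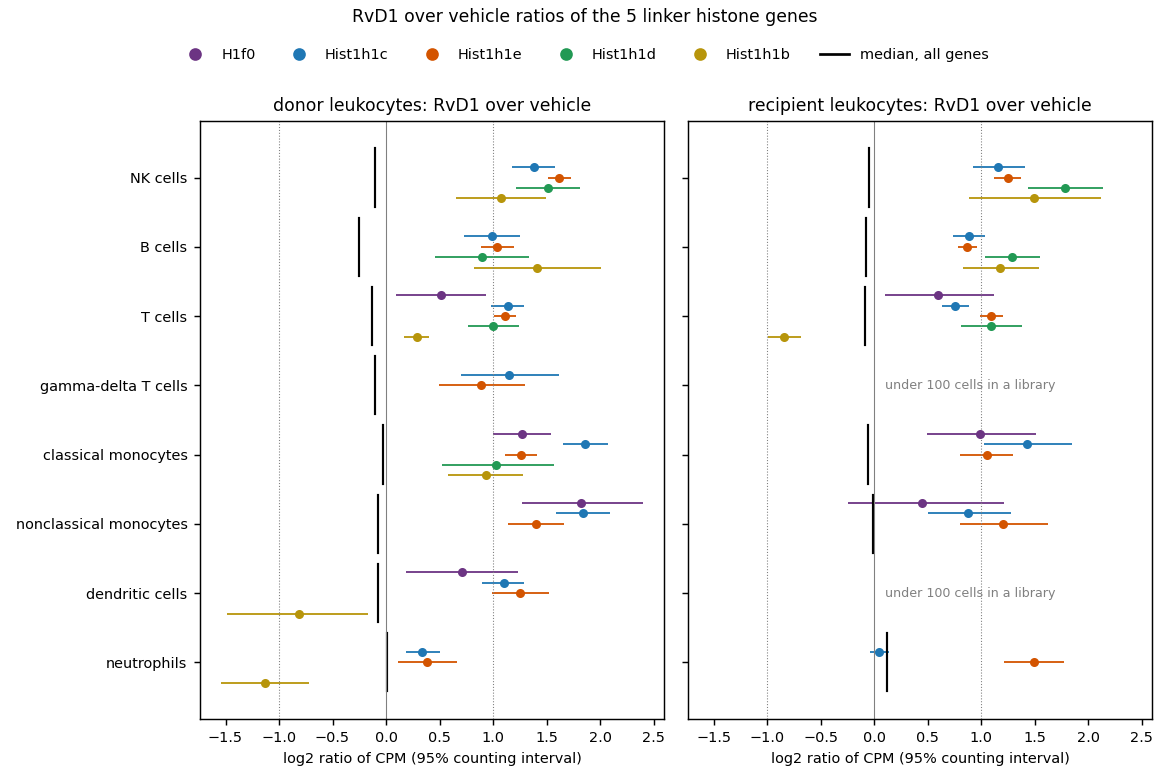
Log2 ratio of CPM, RvD1 over vehicle, for each linker histone gene with at least 100 UMIs over the pair of libraries, in donor and recipient leukocytes, with 95% counting intervals; black lines mark the median of all genes and dotted lines mark 2-fold. Most points lie to the right of the black line, the neutrophil points of Hist1h1c and the T cell points of Hist1h1b being among those near it or to its left.

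Over the 14 combinations of type and origin, Hist1h1e had enough counts in all 14, lay above 0 in all 14 and was past 2-fold in 11, with log2 ratios of 0.38 to 1.62. Hist1h1c lay above 0 in all 14 and was past 2-fold in 8, although relative to the median of all genes its value in recipient neutrophils was -0.07, and as UMIs per cell it was -0.16. For Hist1h1d 7 combinations had enough counts, all 7 lay above 0, and 6 were past 2-fold. H1f0 had enough counts in 7, all above 0, with 2 past 2-fold. Among its values under the minimum, donor gamma-delta T cells had -1.79 (-2.70 to -0.96) and donor neutrophils -0.53 (-1.83 to 0.74). Its other values under the minimum lay above 0. Hist1h1b was the mixed member, with 6 above and 3 below 0 of 9. Those below were recipient T cells, donor dendritic cells and donor neutrophils, and each lay above 0 under some of the other settings. Of all genes with enough counts, the share at least 2-fold higher in donor cells was 0.77% in NK cells, 1.11% in B cells, 0.717% in T cells, 0.932% in gamma-delta T cells, 1.87% in classical monocytes, 0.838% in nonclassical monocytes, 0.807% in dendritic cells and 1.45% in neutrophils. In recipient cells it was 0.602% in NK cells, 0.596% in B cells, 0.706% in T cells, 1.07% in classical monocytes, 1.11% in nonclassical monocytes and 2.33% in neutrophils.

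The last 496 bases of the Hist1h1e model (chromosome 13, 23620629 to 23621124) overlap the annotated Hist1h2be gene on the same strand, so reads in that stretch could be counted for either gene or dropped. Hist1h2be, a core histone gene, had log2 ratios of 0.34 in donor and 1.07 in recipient NK cells and of 0.13 in donor and 0.59 in recipient T cells. It held 4465 UMIs over the 4 libraries. The antisense gene Gm49544, which overlaps H1f0 over 163 bases, held 3 UMIs.

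Between recipient and donor cells, within 1 software version, no member with at least 100 UMIs over the pair of libraries of each treatment was at least 2-fold higher or lower under both, in any of the 6 types. That minimum left 4 members in NK cells, B cells and classical monocytes, 5 in T cells, and 2 in nonclassical monocytes and neutrophils. Hist1h1b in neutrophils was left out because its RvD1 pair, with 5 and 80 UMIs, was under the minimum. Its vehicle pair, with 2 and 143 UMIs, had enough. It was at 0.327 CPM in RvD1 recipient and 7.87 CPM in RvD1 donor cells, a log2 ratio of -4.59 (-6.25 to -3.31). With vehicle it was at 0.104 CPM in recipient and 17.2 CPM in donor cells, a log2 ratio of -7.37 (-10.43 to -5.49). H1f0 in B cells, under the minimum with 5 to 19 UMIs per library, had log2 ratios of -2.11 with RvD1 and -2.05 with vehicle. Hist1h1d was also past 2-fold under both treatments, from 12 to 60 UMIs per library, with -1.54 and -1.27 in neutrophils and 1.33 and 2.18 in nonclassical monocytes. Cluster 22 held 19 of 29 RvD1 donor and 21 of 25 vehicle donor Hist1h1d UMIs of neutrophils. Without it Hist1h1d in neutrophils was at -0.96 (-2.51 to 0.53) with RvD1 and 1.02 (-0.55 to 3.03) with vehicle. Hist1h1b in neutrophils was then at -2.23 (-5.57 to 0.26) and -1.30 (-5.08 to 2.49). These values came from 2 to 20 UMIs per library, and every interval spanned 0. Over all genes, the share at least 2-fold higher under both treatments was 0% in NK cells and nonclassical monocytes, 0.0152% in B cells, 0.0815% in T cells, 0.0281% in classical monocytes and 0.115% in neutrophils. The share at least 2-fold lower was 0.0159% in NK cells, 0.152% in B cells, 3.48% in T cells, 0.112% in classical monocytes, 0.14% in nonclassical monocytes and 0.721% in neutrophils. In B cells Hist1h1e was higher in recipient cells by 0.65 with RvD1 (0.53 to 0.77) and by 0.83 with vehicle (0.69 to 0.96) on the log2 scale, and Hist1h1c by 0.56 with RvD1 and 0.66 with vehicle. Hist1h1d was higher in recipient B cells by 0.93 with RvD1 and 0.54 with vehicle. In NK cells Hist1h1e was higher in recipient cells by 0.24 with RvD1 and 0.61 with vehicle. As UMIs per cell, the RvD1 values of Hist1h1e in NK cells and of Hist1h1c in B cells were -0.08 and -0.07. The RvD1 value of Hist1h1e in B cells was then 0.02.

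Over all T cells, 4 of 5 members were lower in recipient than in donor cells under both treatments. The median log2 ratio of all genes with enough counts was also below 0 there, at -0.19 with RvD1 and -0.22 with vehicle. Hist1h1e stood at percentiles 26.2 and 29.2 of those genes. The groups filled different T cell clusters: cluster 18 held 14 of 1772 RvD1 recipient and 149 of 627 RvD1 donor cells, and 8 of 792 vehicle recipient and 147 of 846 vehicle donor cells. H1f0 was at 9.05 CPM in RvD1 recipient and 17.5 CPM in RvD1 donor T cells, and at 5.98 CPM in vehicle recipient and 12.3 CPM in vehicle donor T cells, with log2 ratios of -0.95 and -1.04. Hist1h1e had recipient over donor log2 ratios of -0.41 with RvD1 and -0.39 with vehicle, and Hist1h1b of -2.0 and -0.88. Recipient T cells also held smaller shares of cycling cells than donor T cells. Within clusters the values differed from these. In cluster 7 Hist1h1e had recipient over donor log2 ratios of 0.27 (0.08 to 0.47) with RvD1 and 0.60 (0.28 to 0.94) with vehicle, and in cluster 9 it had 0.49 (0.09 to 0.89) with vehicle. In cluster 11 with RvD1, H1f0 had 0.53 (0.01 to 1.07) and Hist1h1e 0.02 (-0.10 to 0.14). Without cluster 11 the recipient over donor log2 ratio of Hist1h1e in T cells was -0.03 (-0.15 to 0.09) with RvD1 and 0.15 (-0.06 to 0.36) with vehicle. Neutrophils had more Hist1h1c in recipient cells, by 0.54 (0.43 to 0.66) with RvD1 and 0.84 (0.70 to 0.98) with vehicle on the log2 scale, and without cluster 22 these were 0.60 and 0.90. Hist1h1e in vehicle neutrophils was at 7.84 CPM in recipient and 21.8 CPM in donor cells, a log2 ratio of -1.47, which without cluster 22 was 0.17.

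Other histone genes were described next to the members, by counts and medians of their RvD1 over vehicle log2 ratios. Of 61 replication-dependent core histone genes, which form the nucleosome itself, 13 had enough counts in NK cells of both origins, and 3 were at least 2-fold higher in both, Hist1h4d, Hist1h3e and Hist1h2bc. The median of the 13 was 0.86 in donor and 1.03 in recipient NK cells, against -0.10 and -0.05 over all 6149 genes. The 4 members had medians of 1.44 and 1.37 there. Hist1h4d, an H4 gene, was at 206 CPM in RvD1 donor and 78.5 CPM in vehicle donor NK cells, and at 241 CPM in RvD1 recipient and 101 CPM in vehicle recipient NK cells. In B cells 9 core histone genes had medians of 0.56 in donor and 0.77 in recipient cells, and in T cells 28 had 0.12 and 0.47, with 0 past 2-fold in both origins of either type. Core histone genes made outside S phase, such as H3f3a and H2afz, had medians of 0.27 and 0.17 in NK cells over 8 genes, with 0 past 2-fold.

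Single-exon protein-coding genes as a class, histone genes left out, had medians of 0.05 in donor and 0.08 in recipient NK cells over 59 genes, and multi-exon genes had -0.10 and -0.06. Of 19 genes that transcribe and process histone mRNA, 14 had enough counts in NK cells, with medians of -0.28 and -0.19 and 0 past 2-fold, and 17 in T cells, with -0.35 and -0.16. Npat, the coactivator of histone gene transcription, had log2 ratios of -0.39 in donor and -0.60 in recipient NK cells and of -0.70 and -0.56 in T cells.

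Of 24 genes of S phase, 0 were past 2-fold in both origins of NK, B or T cells. Their median was -0.20 in donor and 0.00 in recipient NK cells over 8 genes and -0.27 and -0.28 in T cells over 18. Pcna, the sliding clamp of DNA polymerase, was at 79.8 CPM in RvD1 donor and 133 CPM in vehicle donor NK cells, and at 78.1 CPM in RvD1 recipient and 125 CPM in vehicle recipient NK cells. Among 8 genes of G2 and M phase in T cells the medians were -0.54 and -0.72, and Mki67 had log2 ratios of -1.18 in donor and -0.72 in recipient cells. In neutrophils Mki67 had -1.19 and -1.26 and Cdt1, a licensing factor for replication, had -2.42 and -2.49.

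Of the chaperones and competitors of H1, Hmgb2, a DNA-bending protein that competes with H1 for linker DNA, was among the 3 genes with the largest values in NK and B cells. It was at 816 CPM in RvD1 donor and 437 CPM in vehicle donor NK cells, and at 903 CPM in RvD1 recipient and 448 CPM in vehicle recipient NK cells, with log2 ratios of 0.90 and 1.01. In B cells its log2 ratios were 0.85 in donor and 0.78 in recipient cells. The 11 genes of that list with enough counts in NK cells had medians of 0.01 and -0.05, and 0 were past 2-fold in both origins. Genes of chromatin compaction had medians of -0.05 in donor and 0.01 in recipient NK cells over 19 genes, with 0 past 2-fold, and modifiers and readers of H1 had -0.24 and -0.06 over 11. Txnip, a gene of resting lymphocytes, had log2 ratios of 1.14 in donor and 0.60 in recipient NK cells, whereas the 15 quiescence genes of its list had medians of -0.07 and -0.12.

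**Figure D5:**
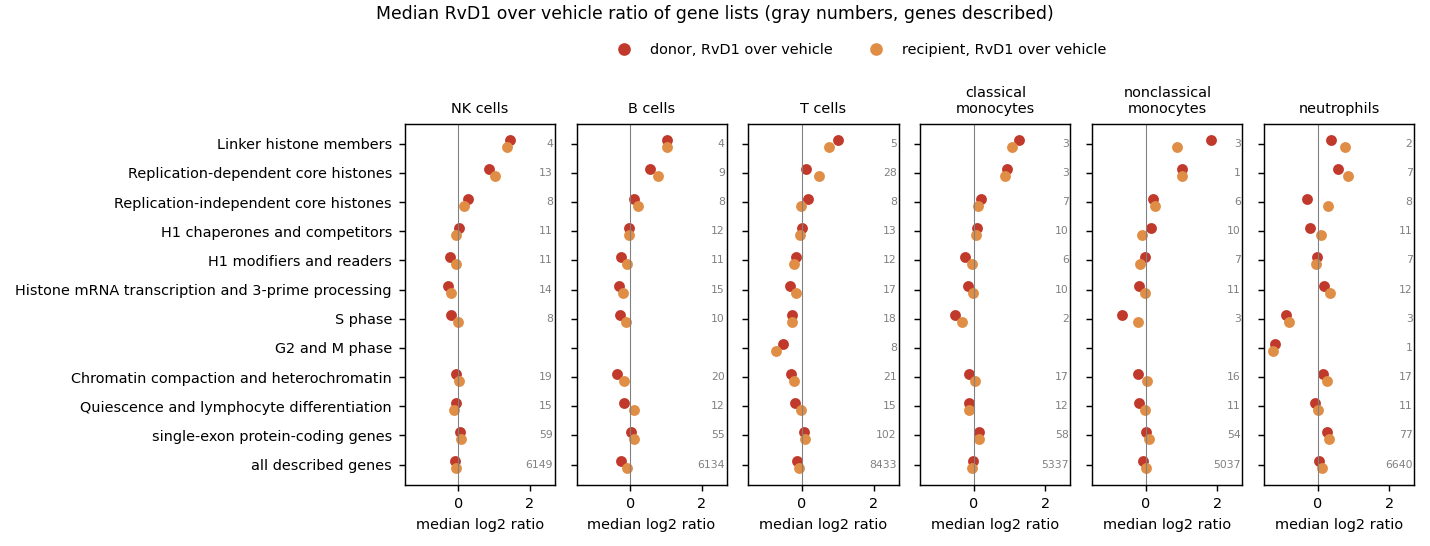
Median log2 ratio, RvD1 over vehicle, of the linker histone genes and of 11 other gene groups, in donor and recipient cells of 6 types, with the number of genes with enough counts in gray. Linker histones and replication-dependent core histones lie to the right of all genes in all 6 types, while S phase genes lie at or to the left of 0. The neutrophil medians of linker histones come from 2 genes, and the core histone values of nonclassical monocytes from 1 gene.

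Across 29 profiles of a type in a library with at least 100 cells each, the 5 genes followed different patterns. Profiles of 1 library share its depth and preparation, so the Pearson correlations of log2(CPM + 1) are descriptions. Hist1h1e and Hist1h1d were closest to each other, at 0.92, and H1f0 stood at 0.15 with Hist1h1e, 0.03 with Hist1h1d and -0.20 with Hist1h1c. Among 10884 genes the 5 most like Hist1h1e were Ino80b, Zfp688, Hist1h4c, Hist1h1d and Ankra2, at 0.92 to 0.93. For H1f0 they were S100a4, Slc12a4, Zfp991, Aup1 and Slc25a5, at 0.87 to 0.89. For Hist1h1c they were Ptprq, Gm46563, Nemp1, Htr1f and Rps27rt, at 0.66 to 0.69.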

How the data were processed

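The authors deposited raw UMI counts, 1 matrix of genes by barcodes for each library. Per the file headers, Cell Ranger version 7.0.1 made the RvD1 matrices and version 6.1.1 the vehicle matrices. The submitters' processing notes name the build mm10 and Seurat 4.0.0. Each group had 1 library. The members and gene lists were chosen with earlier results of these data known, and details of how clusters were named were settled with the clusters in view.

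Barcodes under 200 detected genes or over 10% mitochondrial UMIs were dropped, and doublets called per library with Scrublet (scanpy 1.11.5), at an expected 0.8% per 1000 cells, were removed. That left out 69 to 213 cells by the filters and 68 to 278 doublets per library. All libraries were clustered together without integration, on 2000 variable genes per library without histone genes, 30 principal components, 15 neighbours and Leiden resolution 1 (leidenalg 0.10.2). Clusters were named from 22 marker sets, needing at least 3 markers in at least 10% of cells, with no name given where the score of another lineage came to 70% of the top one. Unnamed cells were 2.73% to 5.84% of a library.

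UMIs were summed per type and library and scaled to that type's total, and no count model was fitted. A type was compared with at least 100 cells in both libraries, and a gene had a ratio with at least 100 UMIs over both. A ratio of 2 or more in either direction was called. Intervals are 95%, exact Poisson for levels, exact binomial for ratios and Clopper-Pearson for shares, and cover counting error only. A library at 0 was set to 3 counts. The ratio intervals were checked on simulated data. The rule for named genes was all 5 members, up to 3 genes of each list ranked by the weaker of their donor and recipient log2 ratios, where both had 1 sign, and the 5 genes most like Hist1h1e, Hist1h1c and H1f0 among those with at least 500 UMIs. Gene models came from GENCODE M21, which held 99.6% of the identifiers, and promoters from RefSeq. The promoter of Hist1h1d is not printed because it lies within the GENCODE model of that gene. Alternatives were other scalings, clusterings, filters and cell sets. The work ran in Python 3.11.15 (pandas 2.3.3, scipy 1.17.1, numpy 2.4.6, matplotlib 3.10.9).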

Additional observations from a re-analysis of the deposited data

Results flagged for a closer look

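The RvD1 over vehicle log2 ratio of Hist1h1b in T cells was 0.29 in donor cells and -0.84 in recipient cells, so the values of both origins lay on opposite sides of 0. The difference was not tested, since each value comes from 1 library per group. Cycling cells, 15 to 62 per library, held 84.8% to 96.2% of these UMIs, and their part in the difference was not tested. Without cluster 11 the donor value was 2.51 (1.26 to 3.96) and the recipient value 1.58 (0.40 to 2.99), both above 0, from 7 to 38 UMIs per library.

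The recipient over donor log2 ratio of Hist1h1c in nonclassical monocytes was -0.26 with RvD1 and 0.70 with vehicle, again on opposite sides of 0. The levels were 129 CPM in RvD1 recipient and 154 CPM in RvD1 donor cells, and 69.9 CPM in vehicle recipient and 43.0 CPM in vehicle donor cells. The RvD1 value was 0.01 where libraries were clustered separately. This difference was not tested either.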

How the results depend on the processing

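Ratios of the 5 genes were recomputed under 14 other settings, 3 of them chosen after seeing the data (histone genes kept among the variable genes, neutrophils without cluster 22, T cells without cluster 11). Of 1161 values, 895 moved by less than their counting error, and 84, from 30 of 96 ratios, lay on the other side of 0 from the reported value. Of the 84, 18 were RvD1 over vehicle and 66 recipient over donor values, and 13 had a reported ratio past 2-fold. Hist1h1b in recipient T cells, reported at -0.84, was 1.04 to 1.58 under 5 settings. Hist1h1b in donor dendritic cells, at -0.81, was 0.41 and 2.41 under 2. Hist1h1e in T cells, recipient over donor, was 0.01 to 0.08 with RvD1 under 4 settings and 0.12 to 0.36 with vehicle under 6. The number of members at least 2-fold higher with RvD1 in both origins was 4 in NK cells, 1 in B cells, 2 in T cells, 2 in classical monocytes, 1 in nonclassical monocytes and 0 in neutrophils. As UMIs per cell it was 1 in NK, 0 in B and 0 in T cells and 1 in classical monocytes. Thinned to 500 UMIs per cell, where fewer genes keep enough UMIs, it was 1 in NK cells and 0 in B cells, T cells and both kinds of monocytes. B cells had 2 with totals free of ribosomal and mitochondrial genes, relative to the median gene, with cells weighted equally and with libraries clustered alone, and 0 at 5% mitochondrial UMIs, at a minimum of 200 UMIs and without cells with a UMI of Mki67 or Top2a. T cells had 0 with libraries clustered alone and 1 at 5% mitochondrial UMIs. With doublets kept, classical monocytes had 1. Neutrophils had 1 with cells weighted equally, doublets kept, at 5% mitochondrial UMIs, with histone genes kept, without Mki67 or Top2a cells and without cluster 22. Hist1h1b in donor neutrophils turned from -1.13 to 1.27 with doublets kept, at 5% mitochondrial UMIs, with histone genes kept and without cluster 22. Hist1h1e of vehicle neutrophils, recipient over donor, turned from -1.47 to 0.06 with cells weighted equally, 0.17 with doublets kept, with histone genes kept and without cluster 22, 0.19 at 5% mitochondrial UMIs and 0.50 without Mki67 or Top2a cells. Hist1h1b in recipient NK cells was -0.11 with libraries clustered alone. Thinned to 500 UMIs, Hist1h1c in donor gamma-delta T cells was -0.42 and Hist1h1e in recipient nonclassical monocytes was -0.02. The cause was not tested where the setting does not itself remove cells or counts. No paired analysis was possible because each group has 1 library and the result comes from no test.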

Other observations

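Basophils were too few for a comparison and had high H1 counts for their number. Hist1h1e had 260 UMIs in 86 RvD1 donor cells and 33 UMIs in 70 vehicle donor cells, which is 450 CPM (397 to 508) and 64.7 CPM (44.5 to 90.8). Recipient basophils had 172 UMIs of it in 67 RvD1 cells and 5 UMIs in 10 vehicle cells. Hist1h1c had 472 CPM in RvD1 donor and 188 CPM in vehicle donor basophils. Of 66 Hist1h1b UMIs in RvD1 donor basophils, 50 came from 1 cell.

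Alveolar macrophages had 41 cells in the RvD1 donor library and 222 in the vehicle donor library. In vehicle donor cells their H1 UMIs summed to 79.1 CPM, the lowest of the profiles described, with H1f0 at 16.6% and Hist1h1b at 23.7% of them. A single cell gave 56 of the 117 Hist1h1b UMIs.

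Among H1 genes outside the 5, Hist1h1a had 131 UMIs in RvD1 donor, 141 in vehicle donor, 207 in RvD1 recipient and 95 in vehicle recipient cells. H1fx had 48, 141, 13 and 4 UMIs in those libraries. Hist1h1t, H1foo, H1fnt and Hils1, genes of the germ line, had 0 to 2 UMIs in a library.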
